A study of Homo sapiens with 6 samples.

Results

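TGF-beta signalling was described through 9 genes, measured by 31 probe sets, out of 19775 genes with a probe set of their own on the array. They are the ligand gene TGFB1, the receptor genes TGFBR1 and TGFBR2, the signal transducer genes SMAD2, SMAD3 and SMAD4, and the pathway's target genes PMEPA1, SKIL and TGFBI. The genes were listed by name with earlier results of these data known, so their shares of calls are no independent test. Every probe set annotated to them alone was taken. They had 2, 3, 2, 6, 4, 5, 3, 5 and 1 probe sets in that order, and 0 probe sets were shared between a listed gene and another gene.

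The cells were HCA-7, an established human colorectal cancer line whose colonies in type 1 collagen take either a spiky or a cystic shape. An isolate of each shape, labelled sc1 (spiky) and cc3 (cystic), was grown in collagen, and RNA from the cell-containing gel layer was taken at day 5, 10 and 15. Each isolate and day had 1 Affymetrix U133 Plus 2.0 array, which gives 3 spiky and 3 cystic arrays. All arrays share the cell line and the collagen culture, and no agent or genetic change was given in the labels. Each shape was represented by 1 isolate, so shape and isolate cannot be told apart, and nothing in the labels says that the days were separate cultures. Any p-value therefore reflects spread between single arrays, and that spread may be technical. In the comparisons of isolates and of days, it also holds any difference between the isolates in their course over days.

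TGF-beta binds a pair of receptor kinases on the cell surface. The type II receptor, encoded by TGFBR2, activates the type I receptor, encoded by TGFBR1, which phosphorylates SMAD2 and SMAD3. These join SMAD4 and enter the nucleus to switch target genes on or off. In normal colon epithelium the pathway restrains growth, and colorectal cancers often lose a receptor or SMAD4 through mutation, which expression arrays do not show.

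Values are log2 expression as the authors deposited them, so a difference of 1 is a 2-fold change. A mean of log2 5 or more was required for testing, because values below it lie close to background; 29 of the 31 probe sets met it, and 203085_s_at (TGFB1) and 1565702_at (SMAD4) did not. The 3 comparisons over days and the comparison of the isolates came from a single limma fit over all 23948 probe sets that met it, and a probe set passed at a Benjamini-Hochberg adjusted p under 0.05 over all of them. Probe sets of a gene read the same RNA sample and are not replicates, and no level of a probe set was tested against that of another. Array medians lay between 5.18 and 5.34. Of 8 epithelial marker genes 6 had a mean of at least 5, namely EPCAM, CDH1, the intestinal marker VIL1 and the keratins KRT8, KRT18 and KRT19, while the intestinal markers CDX2 and KRT20 were below it. None of 5 endothelial markers, 3 of 6 leukocyte markers on the array (CD3D, CORO1A and CSF1R) and 2 of 8 fibroblast markers (COL1A1 and FBLN1) reached that level. In RNA from a gel layer, fewer cells of a type and less RNA per cell cannot be told apart.

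**Figure D1:**
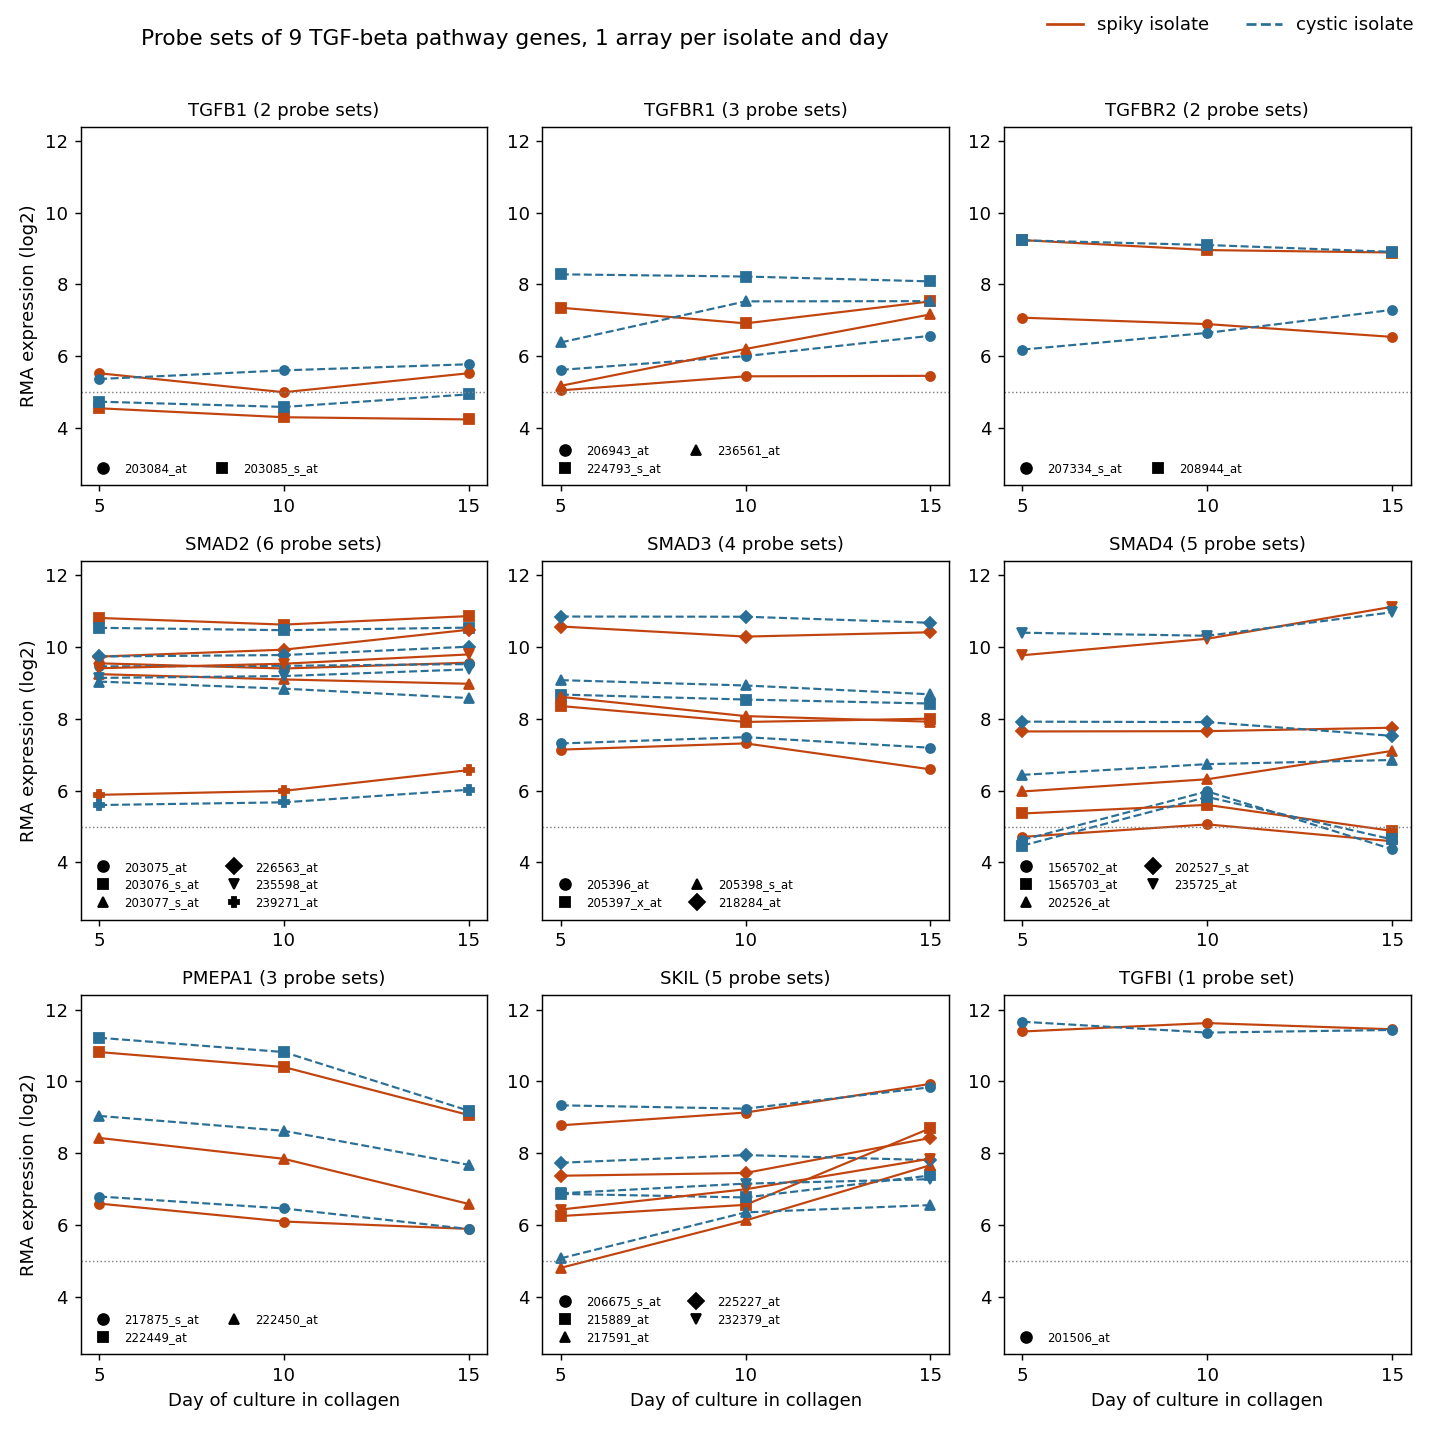
Deposited log2 expression (vertical axis) of the 31 probe sets of the 9 genes at day 5, 10 and 15 of culture (horizontal axis), with 1 array per point, the spiky isolate as solid and the cystic isolate as dashed lines, and a dotted line at log2 5. The PMEPA1 lines run down and the SKIL lines end higher at day 15 than at day 5, by only 0.07 for 225227_at in the cystic isolate, and the TGFBR1 and SMAD3 lines of the spiky isolate lie below those of the cystic isolate.

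The comparison of the spiky with the cystic isolate asked which parts of the pathway differ between the colony shapes. The type I receptor gene TGFBR1 was lower in spiky cells in 3 of 3 probe sets, the transducer gene SMAD3 in 3 of 4 and the target gene PMEPA1 in 1 of 3. No probe set of the listed genes passed as higher, while under other settings up to 2 of SMAD2 did. The calls of TGFBR1 206943_at and SMAD3 205397_x_at were fragile, holding in 2 of 16 and in 6 of 17 alternative settings. Those of TGFBR1 236561_at and SMAD3 218284_at were fragile too, holding in 9 of 17 and in 10 of 18. In all 7 of 29 tested probe sets passed (24.1%), all lower, against 10.3% of all tested probe sets in either direction, 3.52% higher and 6.76% lower. With a single probe set per gene 2 of 9 passed, against 1403 of 12317 over all genes. The median difference over the 29 was -0.10, against -0.02 over all tested probe sets.

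TGFBR1 encodes the kinase that passes the signal on to SMAD2 and SMAD3. Probe set 224793_s_at read 7.35, 6.92 and 7.53 in spiky cells at day 5, 10 and 15, against 8.28, 8.22 and 8.09 in cystic cells. All 3 spiky values lay below all 3 cystic values. The fitted difference was -0.93 (SE 0.17), a 1.91-fold lower level in spiky cells, with a limma adjusted p of 0.00605. Probe set 206943_at read 5.05, 5.44 and 5.45 in spiky cells, against 5.62, 6.0 and 6.57 in cystic cells, again without overlap. Its difference was -0.75 (SE 0.20, limma adjusted p = 0.0387), and it did not pass with arrays centred (0.0557), with cyclic loess (0.0550) or with any of the 6 arrays left out. Probe set 236561_at read 5.18, 6.20 and 7.16 in spiky cells, against 6.38, 7.53 and 7.54 in cystic cells. Here the groups overlapped over days, but the spiky value was lower on each day, by 1.21, 1.33 and 0.37 in size, and the difference was -0.97 (SE 0.21, limma adjusted p = 0.0155).

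The neighbours of TGFBR1 on chromosome 9 were lower in spiky cells too. Of the 20 nearest tested genes, 10 on each side from XPA to PGAP4, all 20 had negative differences and 12 passed as lower, with a median of -0.59. Over all 12302 tested genes with a known place, each by its brightest probe set, 7.86% passed as lower. The median over the 519 tested genes of chromosome 9 was -0.16, against -0.03 over all tested genes with a known place. The adjacent genes named here after their values were seen were GALNT12, an enzyme of mucin-type glycosylation, at -2.99, and ALG2, an enzyme of N-glycan assembly, at -0.56. The part of this stretch or of the chromosome in the TGFBR1 difference was not tested.

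**Figure D2:**
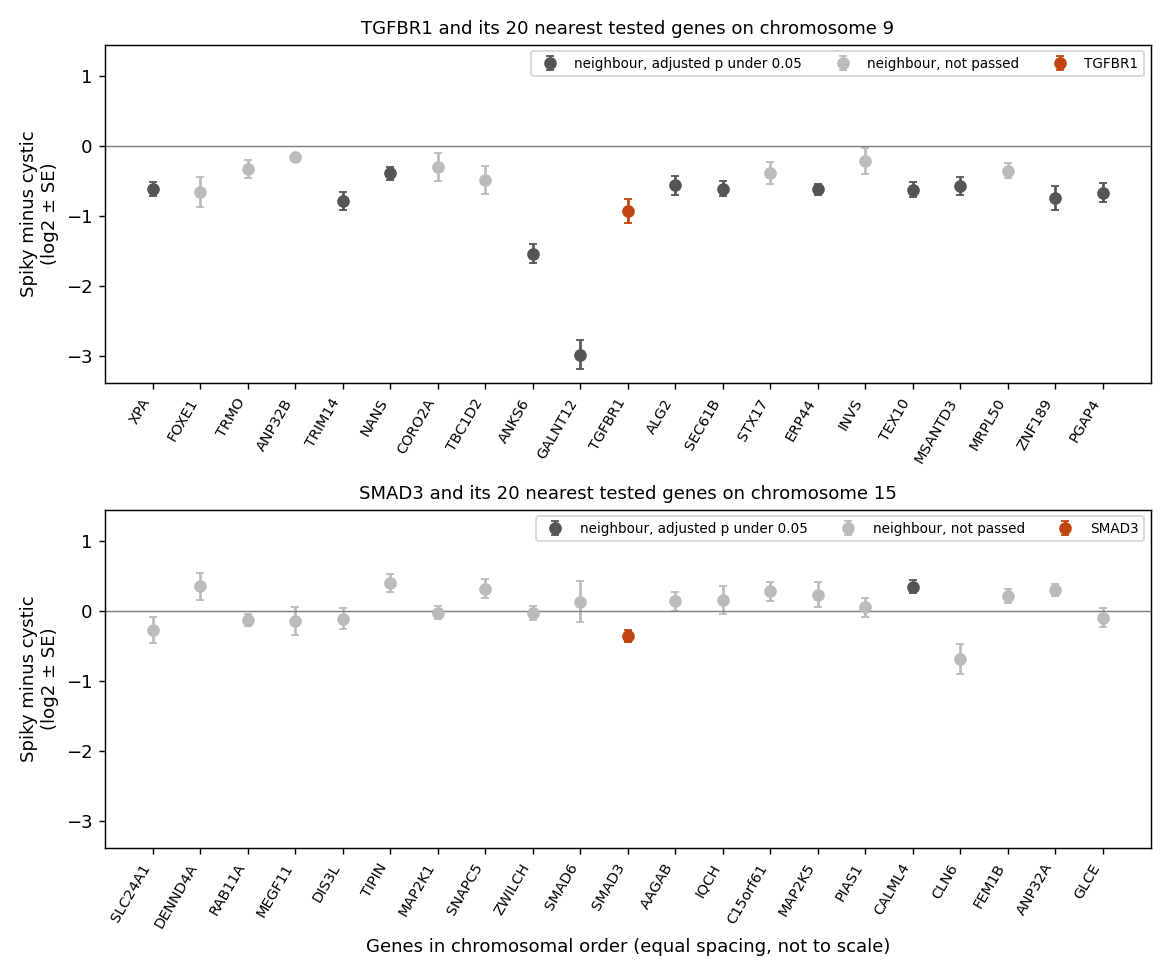
Fitted difference of spiky minus cystic (log2, vertical axis, bars show SE) for TGFBR1 and SMAD3 and the 20 nearest tested genes of each in chromosomal order (horizontal axis, equal spacing). Around TGFBR1 all 20 neighbours lie below 0 with a median of -0.59, and around SMAD3 the neighbours lie on both sides of 0 with a median of 0.13.

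SMAD3, which encodes a receptor-activated transducer, was lower in spiky cells by a smaller amount. Probe set 205398_s_at read 8.61, 8.08 and 7.92 in spiky cells at day 5, 10 and 15, against 9.08, 8.93 and 8.68 in cystic cells, with no overlap. The difference was -0.69 (SE 0.13, 1.62-fold lower, limma adjusted p = 0.00699). Probe set 218284_at read 10.57, 10.29 and 10.41 in spiky cells, against 10.85, 10.85 and 10.68 in cystic cells, also without overlap. Its difference was -0.37 (SE 0.09, limma adjusted p = 0.022). Probe set 205397_x_at, of a type that can also detect other genes, was at -0.46 (SE 0.13, limma adjusted p = 0.0489), or 0.0609 with arrays centred. Probe set 205396_at, at -0.32 (SE 0.16), did not pass, with a limma adjusted p of 0.287. Of the 20 nearest tested genes on chromosome 15, 0 passed as lower and 1 as higher, and their median was 0.13. Over the 389 tested genes of chromosome 15 the median was -0.18, against -0.03 over all tested genes with a known place. The part of the chromosome in the SMAD3 difference was not tested.

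SMAD2, the transducer closest to SMAD3, had 6 of 6 probe sets with positive differences, from 0.02 to 0.38, and 0 passed. Its probe set 203076_s_at read 10.81, 10.63 and 10.86 in spiky cells, against 10.54, 10.47 and 10.54 in cystic cells. These values did not overlap, and the difference was 0.25 (SE 0.08, limma adjusted p = 0.0692). Probe set 235598_at read 9.41, 9.54 and 9.80 in spiky cells, against 9.14, 9.19 and 9.38 in cystic cells, also without overlap, with a difference of 0.34 (SE 0.10, limma adjusted p = 0.0545). With each array centred on its median both passed as higher, with limma adjusted p of 0.0326 and 0.0312, and with cyclic loess 235598_at passed (limma adjusted p = 0.0465). With a minimum mean of log2 6, 235598_at passed as the 1 higher of 8 listed probe sets called. The common partner gene SMAD4, on chromosome 18 like SMAD2, had adjusted p from 0.439 to 0.772 in 4 tested probe sets. Its probe sets 202526_at, 202527_s_at and 235725_at were lower in spiky cells at day 5 and day 10 and higher at day 15.

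TGFBR2, the gene of the ligand-binding type II receptor, did not pass in either probe set. Probe set 208944_at read 9.24, 8.96 and 8.89 in spiky cells, against 9.23, 9.10 and 8.91 in cystic cells. The values of the isolates nearly coincided on each day, and the difference was -0.05 (SE 0.11, limma adjusted p = 0.837). Probe set 207334_s_at read 7.07, 6.90 and 6.54 in spiky cells, against 6.19, 6.65 and 7.29 in cystic cells. The spiky isolate was the higher at day 5 and day 10 and the lower at day 15, and the difference over days was 0.13 (SE 0.26). The ligand gene TGFB1 was dim. Its tested probe set 203084_at read 5.53, 5.00 and 5.53 in spiky cells, against 5.37, 5.61 and 5.78 in cystic cells, with a difference of -0.23 (SE 0.21, limma adjusted p = 0.577).

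Among the target genes PMEPA1, which encodes a membrane protein that restrains the pathway, was lower in spiky cells in a single probe set. Probe set 222450_at read 8.43, 7.84 and 6.59 in spiky cells at day 5, 10 and 15, against 9.04, 8.62 and 7.68 in cystic cells. The spiky value was the lower on each day, and the difference was -0.83 (SE 0.14, 1.78-fold, limma adjusted p = 0.00507). Probe set 222449_at was at -0.31 (SE 0.09, limma adjusted p = 0.0572) and 217875_s_at at -0.19 (SE 0.18, limma adjusted p = 0.605). TGFBI, the gene of a secreted matrix protein, was bright in every array. It read 11.39, 11.63 and 11.45 in spiky cells, against 11.66, 11.36 and 11.43 in cystic cells, and these values overlapped (difference 0.00, SE 0.09, limma adjusted p = 0.985). The 5 SKIL probe sets lay between -0.19 and 0.21, with adjusted p from 0.435 to 0.980.

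**Figure D3:**
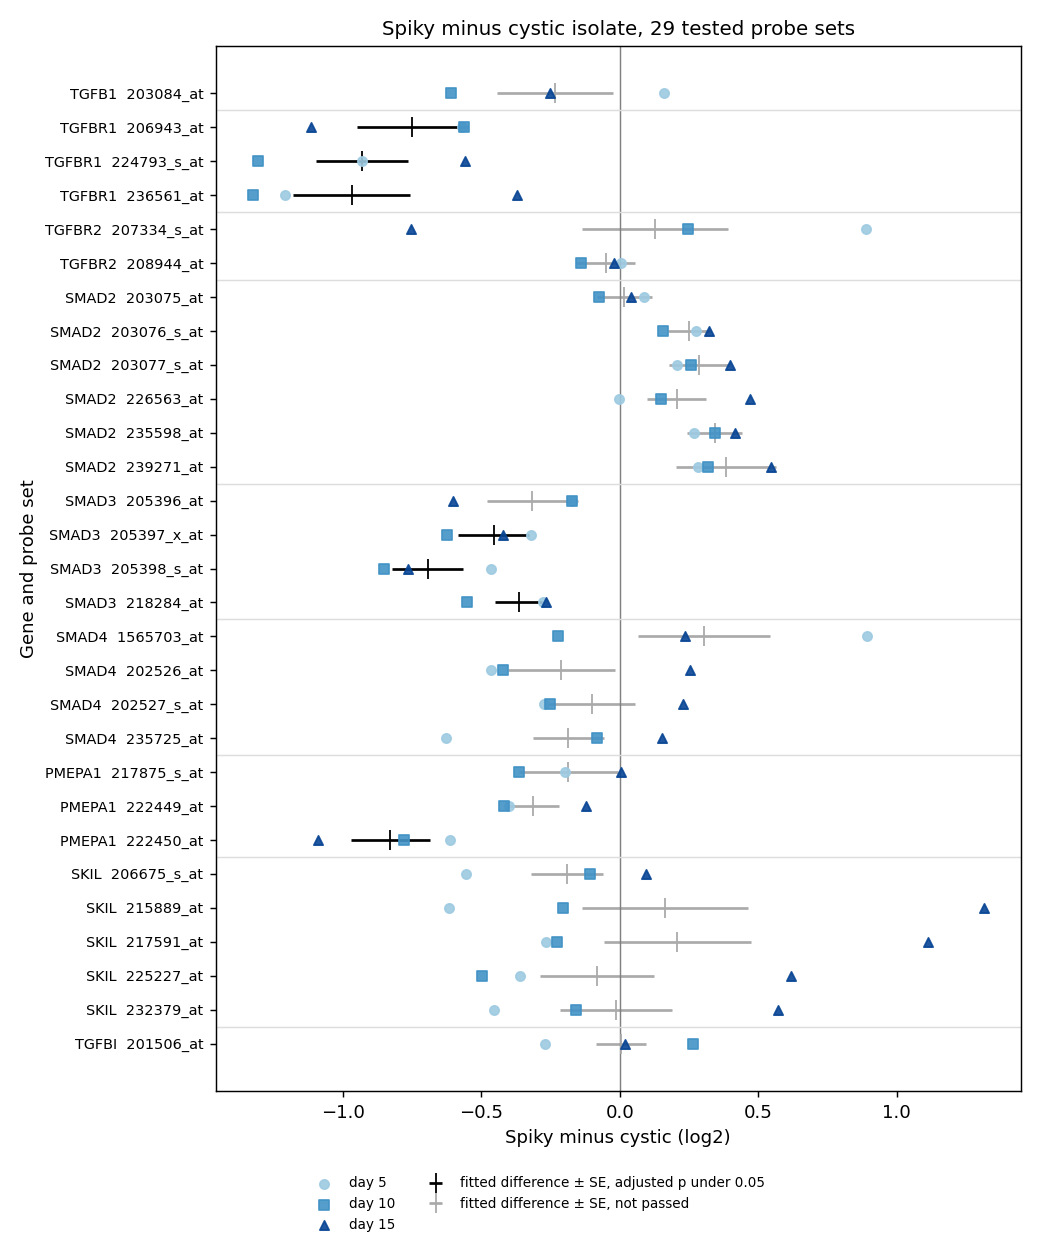
Spiky minus cystic (log2, horizontal axis) for the 29 tested probe sets (vertical axis), with points for day 5, 10 and 15 and a tick with bars for the fitted difference ± SE, black where the adjusted p was under 0.05. The 7 black ticks belong to TGFBR1, SMAD3 and PMEPA1 and lie left of 0, and the 6 SMAD2 ticks lie right of 0.

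These calls depended on single arrays and on the model. Without the day 10 array of the cystic isolate 1 of the 29 probe sets passed, without that of the spiky isolate 2, and without either day 5 array 3, and without either day 15 array 8. With culture day left out of the model, that is with no replicate block, 0 of the 29 passed, the lowest adjusted p of the 7 being 0.141, for TGFBR1 224793_s_at. Some epithelial markers differed between the isolates as well. Of 11 tested epithelial probe sets 2 passed as lower in spiky cells and 0 as higher, with a median of -0.29. They were 228912_at of VIL1, the gene of the microvillus protein villin, at -0.68 (SE 0.18, limma adjusted p = 0.0355) and the keratin gene KRT19 at -0.29 (SE 0.08, limma adjusted p = 0.0475). VIL1 205506_at and 1554943_at did not pass, with limma adjusted p of 0.204 and 0.626. In their brightest probe sets CDH1 was at -0.37, EPCAM at -0.02, KRT8 at 0.08 and KRT18 at 0.12, and these did not pass either. The summed level of the 8 epithelial markers was 14.07, 13.77 and 13.96 in spiky cells and 14.30, 13.85 and 13.89 in cystic cells (log2). Their part in the differences between isolates was not tested.

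Day 15 was compared with day 5 to see how the pathway's genes changed over the culture in both isolates. PMEPA1 fell in 3 of 3 probe sets while SKIL, another target gene, rose in 4 of 5. SMAD4 rose in 2 of 4 tested probe sets, SMAD2 in 1 of 6 and TGFBR1 in 1 of 3, and SMAD3 fell in 1 of 4. Of these calls, SKIL 215889_at, SKIL 232379_at, SMAD2 226563_at, SMAD3 205398_s_at and PMEPA1 217875_s_at each held in 10 of 14 alternative settings. In all 12 of 29 tested probe sets passed (41.4%), 8 higher and 4 lower, against 29.7% of all tested probe sets, 11% higher and 18.7% lower. With a single probe set per gene 3 of 9 passed, against 3982 of 12317 over all genes, a share close to the background. The median difference was 0.04 over the 29 and -0.08 over all tested probe sets.

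PMEPA1 had the largest fall of the listed genes. Probe set 222449_at read 9.07 in spiky and 9.19 in cystic cells at day 15, against 10.82 and 11.22 at day 5. The day 10 values, 10.40 in spiky and 10.82 in cystic cells, lay between the day 5 and the day 15 values of each isolate. The difference between day 15 and day 5 was -1.89 (SE 0.11, 3.71-fold lower, limma adjusted p = 1.2e-05), and between day 15 and day 10 it was -1.49 (SE 0.11, limma adjusted p = 0.000117). Probe set 222450_at read 6.59 in spiky and 7.68 in cystic cells at day 15, against 8.43 and 9.04 at day 5, a difference of -1.60 (SE 0.18, limma adjusted p = 0.000292). Probe set 217875_s_at fell by 0.81 (SE 0.22, limma adjusted p = 0.0195). In each of the 3 probe sets both day 15 values lay below both day 5 values.

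The genes whose arrays followed PMEPA1 222449_at most closely over the 6 arrays were PGM2, a sugar phosphate mutase gene (Pearson r = 0.999), API5, an apoptosis inhibitor gene (0.998), RPA1, a subunit of the single-stranded DNA-binding complex of replication (0.997), SHPRH, a ubiquitin ligase gene of DNA repair (0.996), and CEP15 (0.996). The points share the arrays and the drop at day 15, with day 15 minus day 5 differences from -1.61 for CEP15 to -0.46 for API5.

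SKIL encodes SnoN, a co-repressor that binds SMAD proteins and is itself switched on by the pathway. Probe set 206675_s_at read 9.93 in spiky and 9.84 in cystic cells at day 15, against 8.78 and 9.33 at day 5. The difference was 0.83 (SE 0.16, 1.78-fold higher, limma adjusted p = 0.00382). Probe set 215889_at read 8.70 in spiky and 7.38 in cystic cells at day 15, against 6.25 and 6.87 at day 5, so the spiky value was the highest of the 6 arrays. Its difference was 1.48 (SE 0.37, 2.79-fold, limma adjusted p = 0.0133). Probe set 217591_at, with a day 5 spiky value below log2 5, was at least 4.21-fold higher at day 15 (limma adjusted p = 0.00116), and 232379_at was 1.87-fold higher (limma adjusted p = 0.0206). The remaining probe set 225227_at was at 0.56 (SE 0.25) and did not pass, with an adjusted p of 0.118. In all 5 probe sets both day 15 values lay above both day 5 values.

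Promoter sequences of this pair are shown because both genes are textbook targets of SMAD proteins and moved in opposite directions over the culture. They are RefSeq windows of build GRCh38.p14, from 250 bases before to 50 bases after the transcript start. Capitals mark the core of the SMAD-binding element, CAGAC or its reverse complement GTCTG. RefSeq lists 4 PMEPA1 starts, and the one shown holds the most copies.
SKIL, chr3:170357465-170357764, plus strand: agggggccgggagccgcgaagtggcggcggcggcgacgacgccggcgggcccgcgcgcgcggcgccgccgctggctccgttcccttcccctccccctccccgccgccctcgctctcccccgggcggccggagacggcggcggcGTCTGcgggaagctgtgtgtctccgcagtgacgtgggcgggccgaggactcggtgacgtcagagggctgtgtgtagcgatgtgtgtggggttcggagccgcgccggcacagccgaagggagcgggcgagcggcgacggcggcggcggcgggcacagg
PMEPA1, chr20:57709966-57710265, minus strand: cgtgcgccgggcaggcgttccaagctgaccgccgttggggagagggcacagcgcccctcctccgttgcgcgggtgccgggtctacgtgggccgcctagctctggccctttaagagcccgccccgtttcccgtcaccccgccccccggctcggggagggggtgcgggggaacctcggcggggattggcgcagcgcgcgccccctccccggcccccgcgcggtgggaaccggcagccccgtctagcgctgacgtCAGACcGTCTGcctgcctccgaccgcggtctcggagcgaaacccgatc

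The SKIL window held 1 copy, 107 bases before the start, and the PMEPA1 window 2 copies, 2 and 8 bases after the start, in opposite orientation. The other PMEPA1 windows held 0, 1 and 1 copies. Of 35116 promoter windows of the same length, 45.3% held at least 1 copy and 13.1% at least 2, so a match of either kind was common. GGCGC or its reverse complement GCGCC, a GC-rich motif also bound by SMAD proteins, occurred 3 times in the SKIL window and 4 times in the PMEPA1 window, and 24.7% of all windows held at least 3 copies. The letters were counted on both strands, and CAGAC and GGCGC cannot overlap by more than their shared end letters.

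SMAD4 rose in 2 probe sets. Probe set 235725_at read 11.12 in spiky and 10.97 in cystic cells at day 15, against 9.77 and 10.40 at day 5. Both day 15 values were above both earlier pairs, and the difference was 0.96 (SE 0.16, 1.94-fold higher, limma adjusted p = 0.00172). Probe set 202526_at was at 0.77 (SE 0.24, limma adjusted p = 0.0335), a fragile call that held in 8 of 14 alternative settings. Probe set 202527_s_at was at -0.15 (SE 0.19, limma adjusted p = 0.613), so the probe sets of this gene did not all show the change. The dim probe set 1565703_at was highest at day 10 and passed as lower at day 15 against day 10 (at least 1.64-fold, limma adjusted p = 0.0444), both day 15 values lying below log2 5.

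Of the receptor-activated transducer genes, SMAD2 rose in probe set 226563_at and SMAD3 fell in 205398_s_at. SMAD2 226563_at read 10.48 in spiky and 10.01 in cystic cells at day 15, against 9.73 and 9.74 at day 5 (0.51, SE 0.13, limma adjusted p = 0.015). Its probe set 203077_s_at pointed the other way, at -0.36 (SE 0.13, limma adjusted p = 0.0658). SMAD3 205398_s_at was at -0.54 (SE 0.16, limma adjusted p = 0.0247), and the other SMAD3 probe sets, from -0.33 to -0.17, did not pass. With cyclic loess between arrays the SMAD3 call was lost, with a limma adjusted p of 0.0615.

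TGFBR1 rose in probe set 236561_at, which read 7.16 in spiky and 7.54 in cystic cells at day 15, against 5.18 and 6.38 at day 5. The difference was 1.57 (SE 0.26, 2.97-fold higher, limma adjusted p = 0.00178), and the day 15 and day 5 values did not overlap. Probe set 224793_s_at was at -0.01 (SE 0.20, limma adjusted p = 0.978), and 206943_at at 0.68 (SE 0.24, limma adjusted p = 0.0601). The probe sets of TGFBR1 thus gave the same direction between isolates but not over time. TGFBR2 208944_at was at -0.33 (SE 0.13, limma adjusted p = 0.0808), TGFB1 203084_at at 0.21 (SE 0.26) and TGFBI at -0.08 (SE 0.11), and these did not pass. When each array was centred on its median TGFBR2 208944_at and SMAD2 203077_s_at passed as lower, with limma adjusted p of 0.0267 and 0.0256.

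**Figure D4:**
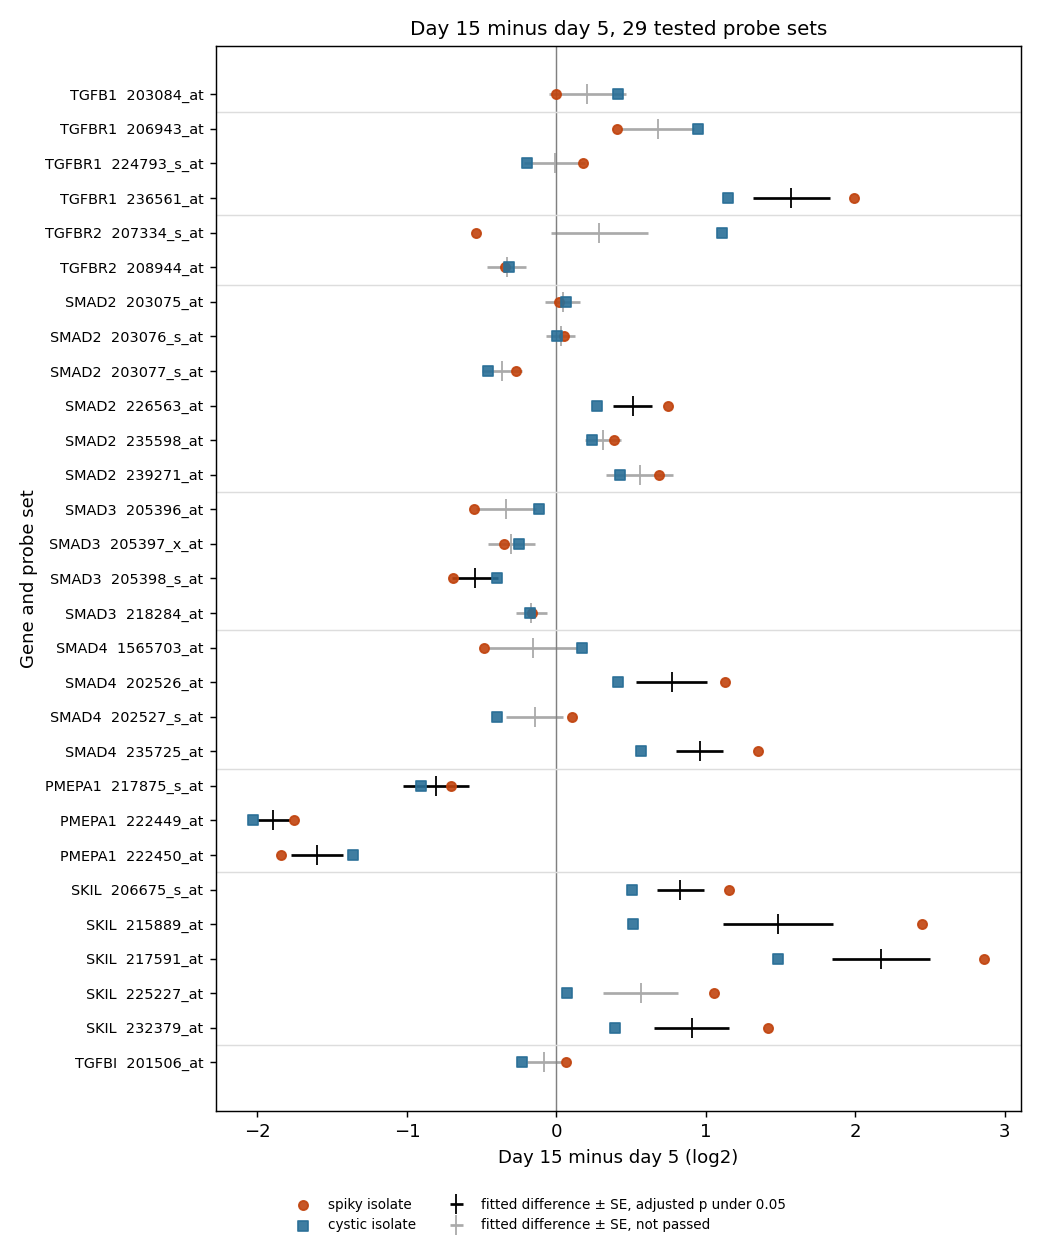
Day 15 minus day 5 (log2, horizontal axis) for the 29 tested probe sets (vertical axis), with a point for the spiky and a square for the cystic isolate and a tick with bars for the fitted difference ± SE, black where the adjusted p was under 0.05. The 3 PMEPA1 ticks lie left of 0, and in each of the 5 SKIL probe sets the spiky point lies right of the cystic square.

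The steps between the days were compared too. In limma 0 of the 29 probe sets passed for day 10 against day 5, against 0.271% of all tested probe sets, 0.209% higher and 0.0626% lower. An unadjusted limma p under 0.05 was found for 5 of the 29 and for 3188 of all 23948 tested probe sets. For day 15 against day 10, 6 passed (20.7%), 3 higher and 3 lower, against 19.5% of all tested probe sets (7.88% higher and 11.7% lower), a share close to the background. The 6 were PMEPA1 222449_at and 222450_at, SKIL 206675_s_at and 215889_at, and SMAD4 235725_at and 1565703_at. Of these, the calls of SKIL 215889_at and SMAD4 1565703_at were fragile, holding in 8 of 14 and in 7 of 13 alternative settings. Of the 12 probe sets that passed between day 15 and day 5, 4 had the larger difference in the step to day 10: TGFBR1 236561_at (1.09, then 0.48), SKIL 217591_at (1.30, then 0.87), SMAD3 205398_s_at (-0.34, then -0.20) and PMEPA1 217875_s_at (-0.42, then -0.39). Without the day 5 array of the spiky isolate 5 probe sets passed for day 15 against day 5. For day 15 against day 10 the count was 3 without the day 10 array of the cystic isolate and 13 without its day 15 array. Without the day 15 array of the cystic isolate 3 passed for day 10 against day 5, and without that of the spiky isolate 4.

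The arrays also differed in other readings, by day and by isolate. The 3' minus 5' difference of the ACTB control probe sets, a sign of RNA integrity, was 2.73, 2.74 and 3.10 in spiky cells at day 5, 10 and 15, and 2.83, 3.18 and 3.28 in cystic cells. That of GAPDH was 0.60, 0.63 and 0.49 in spiky cells and 0.65, 0.79 and 0.63 in cystic cells. Both readings were lower in spiky than in cystic cells on each day. The summed level of the 8 fibroblast markers was 7.84, 7.99 and 8.46 in spiky cells and 7.95, 8.14 and 8.82 in cystic cells (log2). Of the 8, 6 had means below 5. COL1A1 202310_s_at was at 1.38 at day 15 against day 5 (limma adjusted p = 0.00129). FBLN1 was at 0.21 and did not pass (limma adjusted p = 0.516). COL1A1 also stands in the list of induced targets, so this sum is not a fibroblast reading separate from that list. The part of these readings in the differences between days and between isolates was not tested.

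Whether the course over days differed between the isolates was tested as a difference in slope. In limma 0 of the 29 probe sets passed, as did 0 of all tested probe sets, with 4 and 612 at an unadjusted p under 0.05. The SE of this test holds each isolate's departure from a straight line, including a bend that both share. For PMEPA1 222449_at it was 0.52, against 0.11 for day 15 minus day 5. The test could thus miss a difference in course, and 0 calls do not show that the courses were alike. The SKIL slopes were steeper in spiky cells in 5 of 5 probe sets, by 0.65 to 1.93 log2 units per 10 days, with SE from 0.39 to 0.71 and adjusted p of 0.9998. SKIL 215889_at changed by 2.45 in spiky and by 0.51 in cystic cells between day 5 and day 15. SKIL 225227_at changed by 1.05 in spiky and by 0.07 in cystic cells. All 5 SKIL probe sets were lower in spiky than in cystic cells at day 5 and at day 10 and higher at day 15.

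Other genes of the pathway were read from lists by role, in which the counts are probe sets, to be read against the 3.52% of all tested probe sets that were higher and the 6.76% that were lower in spiky cells. Between the isolates, 1 of 22 ligand, latency and activation probe sets rose and 3 fell in spiky cells, with a median of -0.23. LTBP1, which holds TGF-beta latent in the matrix, was higher (0.74, SE 0.18, limma adjusted p = 0.0259). ITGAV, an integrin subunit that can release the ligand, was lower (-0.73, SE 0.15, limma adjusted p = 0.0106). So was FURIN, on chromosome 15 like SMAD3, a protease that cleaves the precursor (-0.74, SE 0.15, limma adjusted p = 0.0122). Among 27 receptor and co-receptor probe sets 2 rose and 7 fell, with a median of -0.13. Both that rose belong to TGFBR3, the co-receptor betaglycan. Its probe set 226625_at read 8.20, 8.09 and 9.0 in spiky cells, against 7.25, 7.53 and 7.56 in cystic cells, without overlap (0.99, SE 0.17, limma adjusted p = 0.00555). ACVRL1, the type I receptor ALK1, was at least 2.32-fold lower (limma adjusted p = 0.00293). CD109, a co-receptor that dampens the signal, was at -0.83 (SE 0.11, limma adjusted p = 0.00147).

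Of 66 probe sets of SMAD regulators and partners 3 rose and 2 fell in spiky cells, with a median of 0.04. DAB2, an endocytic adaptor that binds receptors and SMAD proteins, was at 1.26 (SE 0.21, limma adjusted p = 0.00389), and TGIF1, a SMAD co-repressor, at least 1.92-fold higher in probe set 1566901_at (limma adjusted p = 0.00425). XPO4, an exporter of SMAD3 on chromosome 13, was at -0.63 (SE 0.13, limma adjusted p = 0.0145), and USP9X, a deubiquitinase of SMAD4, at -0.69 (SE 0.17, limma adjusted p = 0.0269). Of 43 probe sets of genes that TGF-beta induces in other cells 3 rose and 6 fell, with a median of -0.05. NEDD9, an adhesion scaffold, was at 0.98 (SE 0.15, limma adjusted p = 0.00277) and HMGA2, a chromatin protein, at 0.51 in probe set 1567223_at (SE 0.14, limma adjusted p = 0.04). The transcription regulators BHLHE40 and TSC22D1 were at -1.18 (SE 0.19, limma adjusted p = 0.00376) and -0.68 (SE 0.12, limma adjusted p = 0.00513), TSC22D1 lying on chromosome 13. Of 10 probe sets of genes that TGF-beta represses, 0 passed in limma, and the largest difference was that of ID2, at 0.71 (SE 0.30). It came from 201566_x_at, a probe set of the type that can also detect other genes.

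Over the culture the same lists were split, with 11% of all tested probe sets higher and 18.7% lower at day 15 than at day 5. At day 15 against day 5, 11 of 43 probe sets of induced targets rose and 14 fell, with a median of 0.06, against -0.08 over all tested probe sets. COL1A1, a fibrillar collagen gene that also stands in the fibroblast list, was at 1.69 in probe set 1556499_s_at (SE 0.22, limma adjusted p = 0.000637), and BHLHE40 at 1.63 (SE 0.23, limma adjusted p = 0.000977). TPM1, which encodes an actin-binding tropomyosin, was at -0.71 and -1.18 in its probe sets with the smallest p, with limma adjusted p of 0.000280 and 0.000356. TAGLN, a smooth muscle actin-binding gene, was at least 2.80-fold lower at day 10 than at day 5 (limma adjusted p = 0.0177), with both day 10 values below log2 5. Of 10 probe sets of repressed targets 1 rose and 4 fell: ID1, an inhibitor of helix-loop-helix factors, was at 1.18 (SE 0.21, limma adjusted p = 0.00244), and the cell cycle phosphatase gene CDC25A at -1.35 in probe set 204695_at and at least 2.35-fold lower in 1555772_a_at. The median of this list was 0.33, opposite in sign to the balance of its calls.

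Of 66 probe sets of SMAD regulators 10 rose and 8 fell at day 15 against day 5, with a median of -0.06. SMURF1, a ubiquitin ligase that removes receptors and SMAD proteins, was at 1.30 (SE 0.17, limma adjusted p = 0.000614), in a probe set of a type that can also detect other genes. TGIF1 1566901_at was at least 2.33-fold higher (limma adjusted p = 0.00126), and it was at least 2.84-fold higher at day 10 than at day 5 (limma adjusted p = 0.0177). The XPO4 probe sets 222649_at and 218479_s_at fell, by 0.84 and 1.24. In the receptor list 3 of 27 rose and 5 fell, with ACVRL1 at least 2.99-fold higher (limma adjusted p = 0.00102), ACVR2B, an activin receptor gene, at least 1.25-fold higher, STRAP, a receptor-associated inhibitor, at -0.56 and TGFBRAP1 at -0.87. In the ligand list 4 of 22 rose and 2 fell, with a median of 0.09. GDF15, a divergent TGF-beta family ligand, was at 1.33 (SE 0.24, limma adjusted p = 0.00279) and FURIN at 0.93. THBS1, which encodes thrombospondin and can activate latent TGF-beta, was at least 3.46-fold and at least 2.25-fold lower in its probe sets 201109_s_at and 201108_s_at.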

How the data were processed

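Per the submitters' processing notes the authors made the deposited log2 values with RMA, a method of background correction, normalization between arrays and summary over probes (version: not given in the sources used here). The arrays were hybridised with biotin-labelled cRNA. Precision is limited by the number of arrays, 6, since there is no read depth.

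Gene symbols came from the platform annotation and were brought up to date through RefSeq gene IDs (41043 of 41097 single-symbol probe sets matched). Those with a mean log2 of at least 5 (23948) entered a limma 3.58.1 fit (R 4.3.3) over the 6 arrays, with a term for colony shape and a factor for day, and moderated variances that follow intensity, which left 2 residual degrees of freedom. Slopes came from a model with day as a number. All p-values are two-sided and adjusted by the Benjamini-Hochberg method over all tested probe sets, and the fit was tested on simulated data. Same-day arrays of the isolates deviated together, with correlations across probe sets of 0.60, 0.45 and 0.70 at day 5, 10 and 15, and day is a factor of the design. Where a probe set passed with an array under log2 5 in the groups compared, its fold is a lower bound with such arrays set to 5. Figures were drawn with matplotlib 3.10.9.

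The genes and lists were chosen with earlier results of these data known. Of each list, the 2 probe sets with the smallest p in each direction were named, or the largest difference where none passed, and for the gene with the widest spread over arrays the 5 most alike genes. Alternatives covered the filter on dim probe sets, the unit tested, array scaling, the variance prior, the factors in the model and each array left out.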

Additional observations from a re-analysis of the deposited data

Results flagged for a closer look

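In 2 probe sets the values ran steadily one way over the 3 days in spiky cells and steadily the other way in cystic cells. TGFBR2 207334_s_at was lower at each later day in spiky cells (7.07, 6.90 and 6.54) and higher at each later day in cystic cells (6.19, 6.65 and 7.29). The slope difference, spiky minus cystic, was -1.64 log2 units per 10 days (SE 0.44), with an unadjusted p of 0.0062 and a limma adjusted p of 0.9998. The other TGFBR2 probe set, 208944_at, had a slope difference of -0.03 (SE 0.33). SMAD4 202527_s_at was slightly higher at each later day in spiky cells (7.65, 7.66 and 7.75) and lower in cystic cells (7.92, 7.91 and 7.53), with a slope difference of 0.50 (SE 0.40, limma adjusted p of 0.9998). Neither difference passed its test, and samples far from their group could not be looked for in groups of 3.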

How the results depend on the processing

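No call of a listed probe set changed sign under any alternative run. Of the alternative values for called listed probe sets, 71 stayed past the threshold and 49 did not for spiky against cystic, 141 and 30 for day 15 against day 5, and 66 and 20 for day 15 against day 10. Counts are given here as all tested probe sets and then the listed ones. Spiky against cystic gave 2462 and 7; these were 1403 and 2 with a single probe set per gene, 1015 and 2 with no intensity trend, and 107 and 0 with no replicate block (culture day left out), and leaving out an array gave 1264 to 3857 and 1 to 8. Leaving out both arrays of day 5, 10 or 15, an alternative chosen after seeing the data, gave 1249 and 3, 1300 and 2, and 3852 and 8. Day 15 against day 5 gave 7122 and 12; a single probe set per gene gave 3982 and 3, no intensity trend 7 listed, and colony shape left out of the model 2275 and 3, with 2264 to 7680 and 5 to 12 when an array was left out. Day 15 against day 10 gave 4677 and 6, and in the same order 2786 and 3, 1884 and 2, 385 and 1, with 1531 to 6142 and 3 to 13. Day 10 against day 5 gave 65 and 0, but 25, 116 and 7 over all with a minimum of 4, of 6 or none, 2 with a single probe set per gene, 36 with centred arrays, 0 with no trend and 0 without colony shape, and 5 to 1237 and 0 to 4 when an array was left out. The slope difference gave 0 to 1 over all and 0 listed. A single probe set per gene tests fewer features, which lowers the counts by construction; the cause of the other changes was not tested. Centring moved the share of higher calls from 34.2% to 46.1% for spiky against cystic and from 40.3% to 28.2% for day 15 against day 10, and cyclic loess moved it from 37.1% to 47.9% for day 15 against day 5; listed calls between the isolates were then 2 higher and 5 lower with centring and 1 higher and 6 lower with loess.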

Other observations

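The inhibitory SMAD gene SMAD6, which lies next to SMAD3 among the tested genes, read 7.07, 7.60 and 9.05 in spiky cells at day 5, 10 and 15, against 7.57, 7.99 and 7.76 in cystic cells. The day 15 spiky value was the highest of the 6 arrays. Its slope difference of 1.79 per 10 days (SE 0.50) had a limma adjusted p of 0.9998.

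ANGPTL4, a secreted regulator of lipid uptake in the list of induced targets, read 8.19 in spiky and 7.11 in cystic cells at day 15, against 5.55 and 5.49 at day 10 (2.13, SE 0.27, limma adjusted p = 0.00105). BHLHE40 rose over the same step by 2.31 (SE 0.23, limma adjusted p = 0.000446). The ubiquitin ligase gene SMURF2 was at 0.70 (SE 0.12, limma adjusted p = 0.00353) between these days, and HMGA2 fell by 1.40 and 1.03 in its probe sets 1558682_at and 208025_s_at.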
